A study of Mus musculus with 48 samples.

Results

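Metallothionein and zinc-handling genes were followed in the brains of 48 mice: the metallothioneins Mt1, Mt2 and Mt3, the metal-responsive transcription factor gene Mtf1, and the exporter genes Slc30a1, Slc30a3 and Slc30a10. They were chosen by name and are 7 of the 56893 genes in the deposited table of estimated counts. All 7 passed the filter on low counts, which left 17352 genes for testing, and none was at 0 in any library. Polyadenylated RNA was sequenced from 1 hemisphere per mouse, with 1 library per mouse. The mice were adults of either sex, 5.5 to 8.5 months old, and they made up 12 groups of 4 by sex, genotype and feeding. Controls carried Grin1fl/fl without Cre, except 1 mouse of the female control unrestricted group, replicate 2, which is labelled Grin1fl/+. Knockouts were Aldh1a1+/P2A-CreERT2::Grin1fl/fl, so the recombinase was made from the Aldh1a1 locus, and Grin1, the gene of an obligatory NMDA receptor subunit, is to be lost only where Aldh1a1 is expressed. The labels used here name neither the agent that activated CreERT2 nor the strain. Every mouse had been moved from group housing to a cage of its own. Unrestricted mice had chow throughout, restricted mice were taken after 2 nights of food restriction with chow given in between, and refed mice then had 3 days of free access to grain-based pellets. The design asks how the knockout's transcriptome depends on sex and on feeding state.

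Metallothioneins are small cysteine-rich proteins that bind zinc and copper and buffer the free metal in the cell. Mt1 and Mt2 are made in astrocytes and many other cells, and their transcription responds to zinc through MTF1 and to glucocorticoid hormone and stress. Mt3 is enriched in brain and is known for responding little to metals. SLC30A proteins move zinc out of the cytosol, and SLC39A proteins move it in. SLC30A10 is, in the body, chiefly an exporter of manganese, and its loss in people causes manganese overload with parkinsonism.

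The metallothionein genes lie next to each other on mouse chromosome 8 in GRCm39, all on the plus strand: Mt3 at chr8:94879220-94881088, Mt2 at chr8:94898819-94900207 and Mt1 at chr8:94905710-94906955. Slc30a10 lies on chromosome 1 at chr1:185186973-185200959. The other members were Mtf1 at chr4:124695897-124743593, Slc30a1 at chr1:191638808-191645361 and, on the minus strand, Slc30a3 at chr5:31241914-31265581. The promoters of the 3 genes that changed with feeding, and of Mt3 as the neighbour that did not pass the test, are shown for the short element that MTF1 is known to bind. Each window runs 5′ to 3′ from 250 bases before to 50 bases after the RefSeq transcript start, on the plus strand. The sequences are RefSeq's, from a table built on GRCm38.p6, and were placed on GRCm39 by exact match. Capitals mark every match to the metal response element core, TGCACNC or TGCGCNC, on either strand.

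Mt1, chr8:94905467-94905766: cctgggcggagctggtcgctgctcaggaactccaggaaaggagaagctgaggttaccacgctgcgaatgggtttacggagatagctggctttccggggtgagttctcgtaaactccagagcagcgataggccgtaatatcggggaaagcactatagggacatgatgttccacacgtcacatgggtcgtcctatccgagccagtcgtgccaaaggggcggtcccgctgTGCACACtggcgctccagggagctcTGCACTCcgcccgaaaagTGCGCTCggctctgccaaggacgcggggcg

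Mt2, chr8:94898996-94899295: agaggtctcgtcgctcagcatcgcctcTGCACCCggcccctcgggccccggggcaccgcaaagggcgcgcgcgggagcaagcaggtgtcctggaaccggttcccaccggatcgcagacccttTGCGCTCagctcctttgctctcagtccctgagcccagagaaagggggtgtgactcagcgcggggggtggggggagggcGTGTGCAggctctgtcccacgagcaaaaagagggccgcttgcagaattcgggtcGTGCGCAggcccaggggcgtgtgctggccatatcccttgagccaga

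Mt3, chr8:94878985-94879284: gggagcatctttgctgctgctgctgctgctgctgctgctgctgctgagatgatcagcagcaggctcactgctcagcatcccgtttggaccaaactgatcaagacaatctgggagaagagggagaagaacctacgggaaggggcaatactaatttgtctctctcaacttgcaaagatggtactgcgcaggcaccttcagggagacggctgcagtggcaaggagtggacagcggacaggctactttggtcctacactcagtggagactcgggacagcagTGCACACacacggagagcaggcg

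Slc30a10, chr1:185186795-185187094: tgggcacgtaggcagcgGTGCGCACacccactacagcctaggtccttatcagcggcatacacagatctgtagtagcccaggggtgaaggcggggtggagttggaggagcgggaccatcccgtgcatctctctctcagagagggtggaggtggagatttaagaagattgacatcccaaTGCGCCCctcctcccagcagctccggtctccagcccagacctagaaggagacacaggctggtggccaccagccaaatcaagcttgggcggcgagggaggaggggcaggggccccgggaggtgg

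Counting overlapping matches once, Mt1 held 3 such cores, Mt2 held 4, Mt3 held 1 and Slc30a10 held 2. Slc30a1 held 2, Mtf1 held 0, and the alternative starts of Slc30a3 held 0 and 1. Among 32841 RefSeq windows of the same length, 25.7% held at least 1 core, 6.14% at least 2, 1.31% at least 3 and 0.295% at least 4. Because the annotated starts differ between sources, the 300 bases before the start codon were counted as well. There Mt1 and Mt2 each held 5 cores, Mt3 held 3, Slc30a1 and Slc30a10 each held 2, and Mtf1 and Slc30a3 held 0. Of 21644 such windows, 0.0785% held at least 5 and 1.32% at least 3. The spaced glucocorticoid-type element ACANNNTGT was matched 1 time in the RefSeq window of Mt1 and in none of the other members' RefSeq windows, against 6.85% of all such windows. In the 300 bases before the start codon no member, Mt1 included, held a match, against 6.56% of those windows. A match describes letters in a window and does not show binding.

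Total estimated counts per library ran from 7574827 to 16185373, with a median of 10515486. Levels are given as CPM, a gene's share of a library's counts on a common scale, with library sizes scaled by TMM. Controls had 190 ± 27.3 CPM of Aldh1a1 and knockouts 101 ± 16.7 CPM (SD, n = 24 each), and the ranges overlapped only between 139 and 147 CPM. Grin1 was at 351 ± 49.3 and 356 ± 29.4 CPM (SD, n = 24 each), a log2 difference of 0.02 (edgeR adjusted p = 1) in RNA of a whole hemisphere. The labelled tissue was checked with 10 neuron markers, whose summed level was at least 6011 CPM in each library. Male control refed replicate 1 stood apart with 4294 CPM of summed skeletal muscle markers, and female knockout unrestricted replicate 2 had the lowest TMM factor, 0.913. These are the 2 libraries left out together below. Female control restricted replicate 2 had 282 CPM of the muscle markers, beside at most 21.5 CPM in unrestricted mice, and was kept in that fit. All 16 refed mice had library numbers up to 28, while both other feeding states fell on either side of that number. The labels do not say what the number stands for.

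Per kilobase of transcript, which is the scale on which genes can be compared, Mt3 had the highest mean level, 245 ± 34.5 CPM per kb (SD, n = 48), and Mt1 followed at 217 ± 66.4. Mt2 was at 121 ± 38.7 CPM per kb. Mt3 and Mt1 overlapped over most of their ranges, from 169 to 323 and from 143 to 376 CPM per kb. The transporters were far lower. Slc30a3, which loads zinc into the vesicles of glutamatergic nerve endings, was at 21.2 ± 3.05 CPM per kb. Slc30a1, the plasma membrane exporter, was at 5.10 ± 0.606, Mtf1 at 4.39 ± 0.275 and Slc30a10 at 2.66 ± 0.367 CPM per kb, and the ranges of Slc30a1 and Mtf1 overlapped. The spread over all 48 mice relative to the mean was 30.5% for Mt1 and 32% for Mt2. It was 14.1% for Mt3, 14.4% for Slc30a3, 13.8% for Slc30a10, 11.9% for Slc30a1 and 6.27% for Mtf1.

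In restricted mice Mt1 and Mt2 were higher than in unrestricted mice by about the same factor, and Slc30a10 was lower. In refed mice no member differed detectably from its unrestricted level. Of the 7 members, 3 were called on restriction against unrestricted feeding, 2 of them higher and 1 lower, where 15.2% of all genes were called (adjusted p under 0.05 over 17352 genes in edgeR's quasi-likelihood test, mean over sexes and genotypes). Of all genes, 7.31% were called higher and 7.84% lower. In tissue RNA of this kind, a change in the number of cells that express a gene and a change in RNA per cell cannot be told apart.

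Mt1 was at 109 to 186 CPM in the 16 unrestricted mice, with a median of 144. In the 16 restricted mice it was at 147.5 to 287 CPM, with a median of 217. In the 16 refed mice it was at 109 to 147.3 CPM, with a median of 127. Thus 15 of 16 restricted mice lay above the highest unrestricted mouse, and all 16 lay above the highest refed mouse. The exception was female control restricted replicate 1, at 147.5 CPM, while the other 3 mice of its group were at 268, 268 and 274 CPM. It had library number 17, and theirs were 46, 47 and 48. The highest unrestricted value belonged to the Grin1fl/+ mouse, at 186 CPM, beside 125, 129 and 136 CPM in the rest of its group. The restricted minus unrestricted difference was 0.68 on the log2 scale (SE 0.0715), a 1.60-fold higher level, with an edgeR adjusted p of 9.62e-10. Its rank by p was 67 among all genes tested.

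In each combination of sex and genotype the restricted mean of Mt1 was the highest of the 3. Female controls had 144 ± 28.3 CPM unrestricted, 239 ± 61.3 restricted and 127 ± 14.6 refed (SD, n = 4 each). Female knockouts had 136 ± 18.1, 218 ± 14.9 and 129 ± 10.7 CPM in the same order. Male controls had 138 ± 26.5, 237 ± 42.8 and 138 ± 17.8 CPM, and male knockouts had 148 ± 10.8, 214 ± 15.3 and 121 ± 8.96 CPM. All 4 restricted mice exceeded all 4 unrestricted mice in 3 of the 4 combinations, and all 4 refed mice in 4 of 4.

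Mt2 followed the same course at a lower level. It was at 49.6 to 120 CPM in unrestricted mice (median 75.1), 88.4 to 157 CPM in restricted mice (median 123) and 57.9 to 88.12 CPM in refed mice (median 69.9). Of the restricted mice, 9 of 16 lay above the highest unrestricted mouse and all 16 above the highest refed mouse. The lowest restricted value was again that of female control restricted replicate 1, and the highest unrestricted value again that of the Grin1fl/+ mouse. The log2 difference between restricted and unrestricted mice was 0.71 (SE 0.0875, 1.63-fold, edgeR adjusted p = 4.44e-08). Without the Grin1fl/+ mouse it was 0.76 for Mt2 and 0.72 for Mt1. None of the Mt2 estimates was a whole number, and the annotation places the noncoding Gm45774 over it on the other strand. The same held for Slc30a10, which the noncoding Gm2061 overlaps on the other strand. Whether reads were shared out between such genes was not tested.

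**Figure D1:**
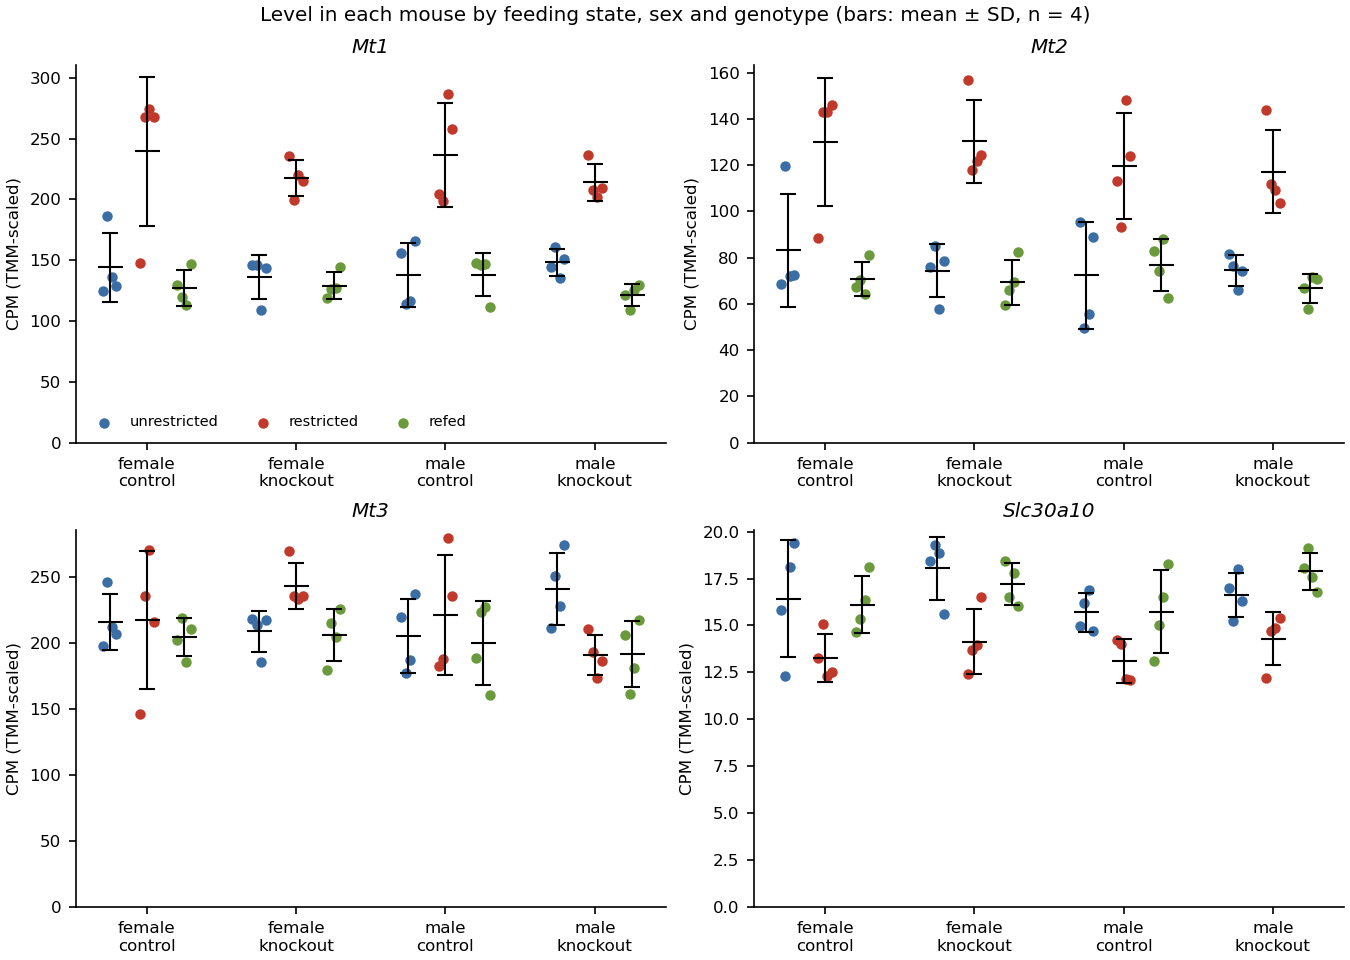
Levels of Mt1, Mt2, Mt3 and Slc30a10 in CPM (vertical axes, from 0) in each of the 48 mice, by sex and genotype (horizontal axis) and feeding state (colour). Black bars give the mean and SD of 4 mice. The restricted mice stand above all refed mice for Mt1 and Mt2, and 15 of 16 and 9 of 16 of them stand above all unrestricted mice. The lowest restricted mouse is female control replicate 1, at 147.5 and 88.4 CPM. For Slc30a10 the restricted mice are lower on average only.

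Slc30a10 moved in the opposite direction and by less. It was at 12.3 to 19.4 CPM in unrestricted mice (median 16.6), 12.1 to 16.5 CPM in restricted mice (median 13.8) and 13.1 to 19.1 CPM in refed mice (median 16.7). The groups overlapped: 4 of 16 restricted mice lay below every unrestricted mouse and 6 of 16 below every refed mouse. The restricted mean was lower than the unrestricted mean in all 4 combinations of sex and genotype. The log2 difference was -0.29 (SE 0.0542, edgeR adjusted p = 1.32e-04). The lowest unrestricted value, 12.3 CPM, was that of the Grin1fl/+ mouse, which also had the highest Mt1 and Mt2 of the unrestricted mice. Without it the log2 difference was -0.31.

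The remaining members did not pass the test. Mt3, at 177 to 274, 146.5 to 279 and 160 to 227 CPM in unrestricted, restricted and refed mice, had a log2 difference of 0.00 between restricted and unrestricted mice (95% interval -0.13 to 0.13, edgeR adjusted p = 0.999). That interval lies below those of its neighbours, 0.54 to 0.82 for Mt1 and 0.53 to 0.88 for Mt2. Mtf1 was at 30.2 to 35.8, 30.4 to 36.6 and 28.3 to 38.6 CPM, with a log2 difference of 0.04 (95% interval -0.04 to 0.11, adjusted p = 0.566 in edgeR). Slc30a1, a gene that MTF1 is known to induce, was at 22.6 to 33.3, 19.1 to 30.1 and 18 to 31.1 CPM. Its log2 difference was -0.11 (95% interval -0.23 to 0.01, edgeR adjusted p = 0.232). Slc30a3 was at 35.7 to 56.7, 37.1 to 65.1 and 37.7 to 53.3 CPM, with a log2 difference of 0.13 (95% interval 0.00 to 0.26, edgeR adjusted p = 0.182).

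Because Mt1, Mt2 and Mt3 transcripts are of like length, their ratios within a library were also taken, a measure that needs no library scaling. The ratios were chosen after the data were seen, so their tests are not independent of the differences above. The Mt1 to Mt3 count ratio was 0.551 to 0.754 in unrestricted mice, 0.848 to 1.24 in restricted mice and 0.545 to 0.78 in refed mice. The restricted mice therefore did not overlap with either other state, and female control restricted replicate 1, which was low in Mt1, Mt2 and Mt3 alike, fell among the others of its state. On the log2 scale the ratio was 0.69 higher in restricted than in unrestricted mice (adjusted p = 2.25e-05 over 9 comparisons, two-sided permutation test of feeding state within sex and genotype with 100000 resamples, whose unadjusted p of 1e-05 is the smallest it can give). The Mt2 to Mt3 ratio was 0.73 higher by the same test, with the same p. The Mt1 to Mt2 ratio was 1.89 ± 0.193, 1.83 ± 0.165 and 1.82 ± 0.0955 (SD, n = 16 each) in unrestricted, restricted and refed mice. Its log2 difference between restricted and unrestricted mice was -0.04 (adjusted p = 0.523, permutation test), so no difference in the proportion of the pair was detected.

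Refed mice were compared with restricted and with unrestricted mice, and the restricted libraries are shared with the comparison above, so the 2 sets of differences are not independent. Refed mice alone had grain-based pellets, so diet and refeeding cannot be told apart in either comparison. Between refed and restricted mice 3 of 7 members were called, 1 higher and 2 lower, beside 15.2% of all genes (8.38% higher and 6.79% lower). Mt1 fell by 0.82 (SE 0.0718, edgeR adjusted p = 8.56e-12) and Mt2 fell by 0.81 (SE 0.0879, edgeR adjusted p = 2.62e-09) on the log2 scale. Slc30a10 rose by 0.29 (SE 0.0543, edgeR adjusted p = 1.42e-04). Mt3 was at -0.12 (95% interval -0.25 to 0.02), Mtf1 at -0.03 (-0.10 to 0.05), Slc30a1 at 0.05 (-0.07 to 0.18) and Slc30a3 at -0.13 (-0.26 to -0.01), none past the adjusted threshold. For Slc30a3 the call rested on how library number was treated: the difference was -0.24 (edgeR adjusted p = 0.0125) with library number up to 28 or above as a block, and -0.23 (adjusted p = 0.0118) within libraries up to 28.

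Between refed and unrestricted mice none of the 7 members was called, beside 0.738% of all genes. The estimates were -0.14 for Mt1 (95% interval -0.28 to 0.01), -0.10 for Mt2 (-0.28 to 0.08) and 0.00 for Slc30a10 (-0.11 to 0.11). At an unadjusted p under 0.05 the count was also 0 of 7. A remaining difference of the size seen under restriction thus lay outside these intervals for all 3 genes.

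**Figure D2:**
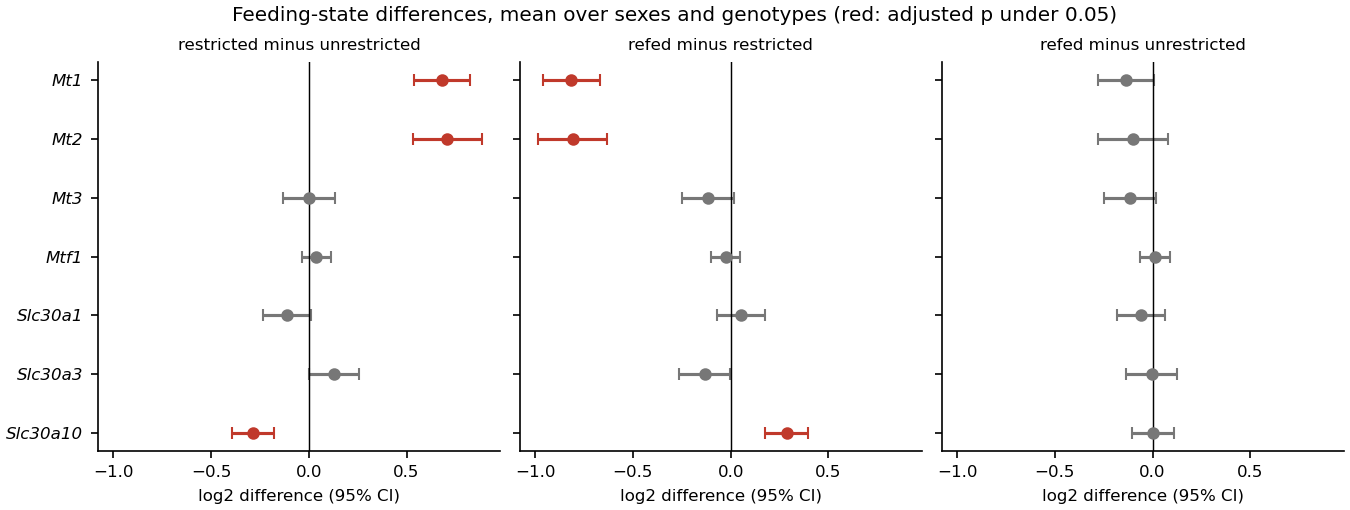
Log2 differences between feeding states for the 7 genes, mean over sexes and genotypes, with 95% intervals (horizontal axis) from edgeR. Mt1, Mt2 and Slc30a10 are called in the first and second panel, in opposite directions, and no gene is called in the third.

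The feeding differences were then taken within library numbers. Among libraries up to 28, with 7 restricted and 5 unrestricted mice, the restricted minus unrestricted log2 difference was 0.53 for Mt1, 0.55 for Mt2 and -0.34 for Slc30a10 (edgeR adjusted p = 0.00109, 0.00561 and 0.0104). Among libraries from 29 on, with 9 and 11 mice, it was 0.78, 0.79 and -0.25 (edgeR adjusted p = 8.99e-07, 1.08e-05 and 0.0334). Refed mice were all in the lower numbers, where 16 of them differed from 7 restricted mice by -0.68 for Mt1, -0.75 for Mt2 and 0.32 for Slc30a10. Each of these was called. Against the 5 unrestricted mice of those numbers, the 16 refed mice differed by -0.15 for Mt1, -0.19 for Mt2 and -0.02 for Slc30a10, none called. Without the 2 libraries that stood apart the 3 restricted minus unrestricted differences were 0.69, 0.72 and -0.28, all called.

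Both sexes showed the changes. In females, 3 of 7 members were called between restricted and unrestricted mice, beside 6.27% of all genes: Mt1 was 0.70 and Mt2 0.72 higher, and Slc30a10 0.33 lower (log2 difference -0.33, edgeR adjusted p = 0.00454). In males 3 of 7 were called beside 8.28% of all genes, with 0.66 for Mt1, 0.69 for Mt2 and -0.24 for Slc30a10 (edgeR adjusted p = 0.0403). The male call of Slc30a10 was narrow. It was lost when any 1 of 8 male libraries was left out (log2 difference -0.25 to -0.21, edgeR adjusted p from 0.0509 to 0.0906), namely male knockout unrestricted replicates 1 and 3, male knockout restricted replicates 1 and 2, male control unrestricted replicates 2 and 3, or male control restricted replicates 3 and 4. On refeeding, 3 of 7 members were called in females, beside 6.1% of all genes, and 3 of 7 in males, beside 8.33%. The log2 differences in females were -0.83 for Mt1, -0.89 for Mt2 and 0.28 for Slc30a10 (edgeR adjusted p = 0.0191 for the last). The female call of Slc30a10 was lost without female knockout restricted replicate 1 (edgeR adjusted p = 0.0508) or female control refed replicate 4 (edgeR adjusted p = 0.0533). In males they were -0.80, -0.72 and 0.29 (edgeR adjusted p = 0.0105 for the last). No member was called between refed and unrestricted mice of either sex, beside 0.0403% of all genes in females and 0.167% in males.

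The test of whether the feeding changes differed between the sexes called no gene at all (0% of 17352), and the members' edgeR adjusted p-values ran from 0.85 to 0.989. At an unadjusted p under 0.05, 1101 genes and none of the members passed it. Averaged over feeding states, no member was called between males and females, beside 0.357% of all genes. The nearest was Slc30a3, at 49.6 ± 6.75 CPM in males and 45.7 ± 6.54 CPM in females (SD, n = 24 each), with a log2 difference of 0.12 (95% interval 0.02 to 0.23, edgeR adjusted p = 0.217).

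No member was called between knockouts and controls. Over all mice Aldh1a1 was the only gene called, 0.00576% of those tested. The log2 differences were -0.07 for Mt1 (95% interval -0.19 to 0.05), -0.06 for Mt2 (-0.21 to 0.08), 0.02 for Mt3 (-0.09 to 0.12), 0.00 for Mtf1 (-0.06 to 0.06), 0.02 for Slc30a1 (-0.08 to 0.12) and -0.03 for Slc30a3 (-0.13 to 0.08). Slc30a10 was at 12.1 to 19.4 CPM in controls (median 15) and 12.2 to 19.3 CPM in knockouts (median 16.5), which overlapped almost fully. Its mean was higher in knockouts in 6 of 6 pairs of groups matched on sex and feeding, and the log2 difference was 0.12 (95% interval 0.03 to 0.21, unadjusted p = 0.0103, edgeR adjusted p = 1). In none of these 6 pairs did the 4 knockouts lie apart from the 4 controls for any member. Per combination no member was called either, beside 0.386% of all genes in restricted females, 0.225% in refed males, 0.0115% in unrestricted females and 0.00576% in each of the other 3.

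The interaction of genotype with feeding state called 0 of 17352 genes, and the members' edgeR adjusted p-values ran from 0.973 to 0.995. The interaction of genotype with sex called 0 as well, with adjusted p-values from 0.946 to 1 in edgeR. At an unadjusted p under 0.05 these tests passed 792 and 887 genes, with no member among them. With 4 mice per group the intervals in single combinations were wide: that of Mt2 in refed males ran from -0.56 to 0.15.

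**Figure D3:**
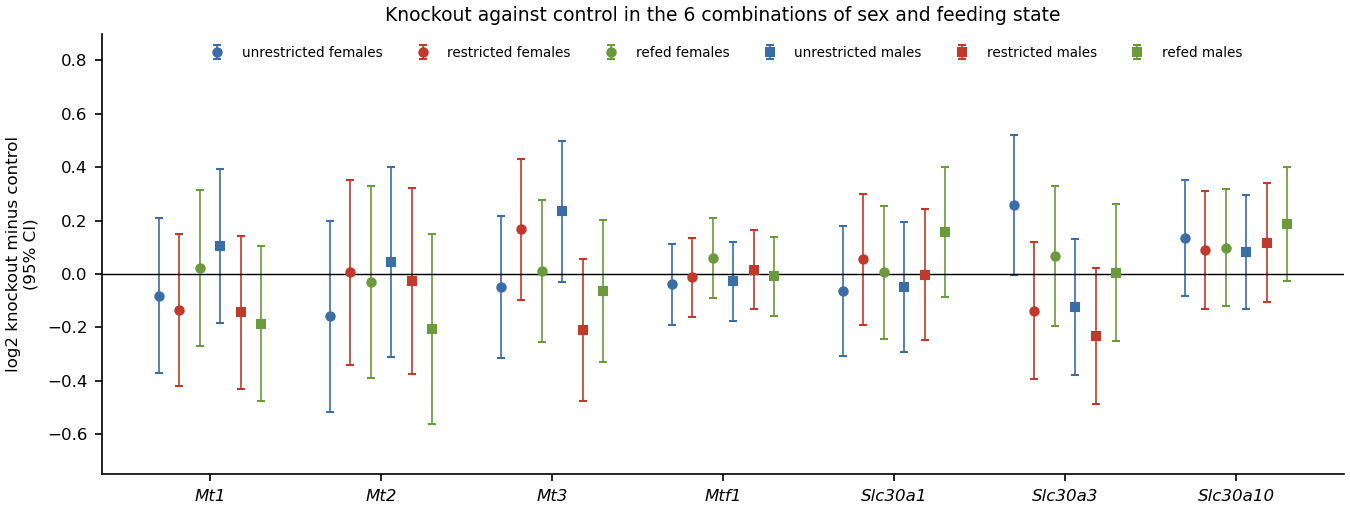
Log2 differences between knockouts and controls (vertical axis, with 95% intervals from edgeR) for each gene in the 6 combinations of sex (circles female, squares male) and feeding state (colour). No gene was called. The 6 estimates of Slc30a10 are all above 0 and lie between 0.08 and 0.19. How many of all genes have 6 estimates above 0 was not counted.

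The other genes of zinc transport were examined as whole families. Of 13 tested SLC39A importer genes, 1 was called higher and 1 lower under restriction, a share like the 15.2% of all genes called there, with a median log2 difference of -0.02, where the median of all genes was 0.00. Slc39a10, an importer that is known to be lowered by zinc through MTF1, was at 99.6 to 136 CPM in unrestricted mice (median 111), 81.9 to 117 in restricted mice (median 95.9) and 103 to 129 in refed mice (median 114). It fell by 0.21 under restriction (SE 0.0395, edgeR adjusted p = 9.52e-05) and rose by 0.24 on refeeding (SE 0.0395, edgeR adjusted p = 1.5e-05). Slc39a14, which carries manganese, iron and zinc into cells, was at 30.1 to 37.9 CPM (median 32.9), 31.7 to 43 CPM (median 37.5) and 28.1 to 39.3 CPM (median 33.2) in the same order. It rose by 0.17 under restriction (SE 0.0383, edgeR adjusted p = 0.00164) and fell by 0.17 on refeeding (SE 0.0384, edgeR adjusted p = 0.00101). None of the 6 other SLC30A genes that could be tested was called in either comparison, and their median was -0.02 in both. Mt4, known from squamous epithelium, was too low to be tested.

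**Figure D4:**
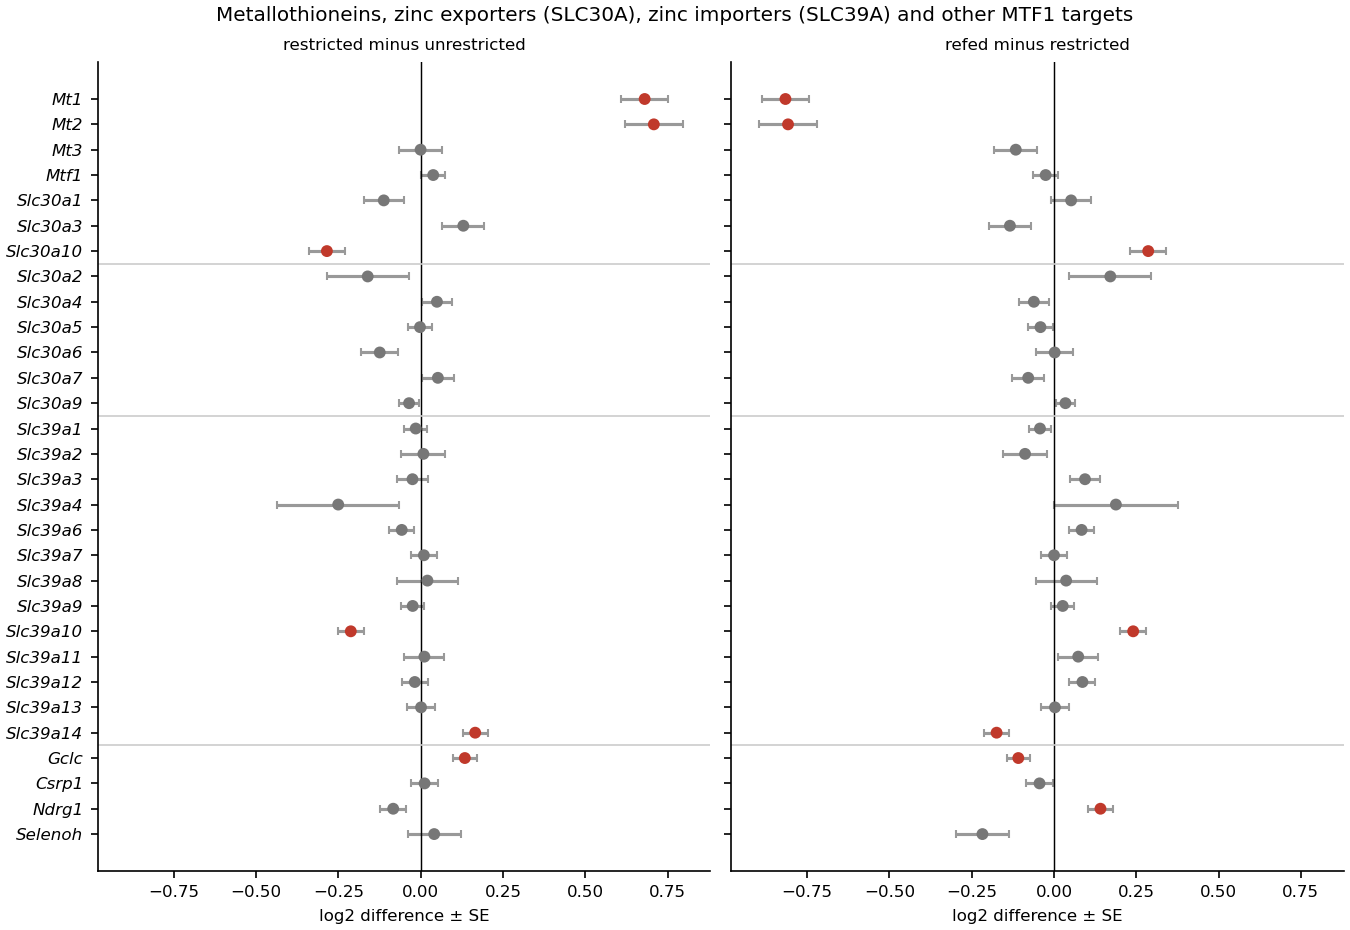
Log2 differences with standard errors (horizontal axes) for the 7 genes, the other SLC30A and SLC39A transporters and other reported MTF1 targets, on restriction (left) and refeeding (right). Red marks an adjusted p under 0.05: besides Mt1, Mt2 and Slc30a10, these are Slc39a10, Slc39a14 and Gclc in both panels and Ndrg1 on refeeding.

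Of 4 other reported targets of MTF1, 1 was called under restriction, beside 15.2% of all genes. Gclc, the catalytic subunit of glutathione synthesis, rose by 0.13 (SE 0.0355, edgeR adjusted p = 0.00616) and fell by 0.11 on refeeding (SE 0.0355, edgeR adjusted p = 0.031). The median of the 4 was 0.03. Ndrg1, a stress-responsive gene, was at -0.08 under restriction (edgeR adjusted p = 0.157) and rose by 0.14 on refeeding (SE 0.0392, edgeR adjusted p = 0.00991).

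Copper and iron genes were divided in direction. Of 13, 3 were called higher under restriction and 2 lower, beside 7.31% and 7.84% of all genes, with a median of 0.05. The ceruloplasmin gene Cp rose by 0.37 and the transferrin receptor gene Tfrc by 0.27, while the transferrin gene Trf fell by 0.33 and the iron exporter gene Slc40a1 by 0.23 (edgeR adjusted p from 1.03e-05 to 0.00837). Of 9 NRF2 targets 3 were called higher and 1 lower, beside the same shares of all genes. Abcc4, a transporter of organic anions, rose by 0.45 and the quinone reductase gene Nqo1 by 0.29, whereas the cystine transporter gene Slc7a11 fell by 0.37 (edgeR adjusted p = 3.55e-05, 0.0177 and 1.6e-05). Between refed and restricted mice Abcc4 differed by -0.45 and Slc7a11 by 0.57. The mean of Slc7a11 was 28.2 CPM in unrestricted, 22 CPM in restricted and 32.5 CPM in refed mice. No NRF2 target was called between refed and unrestricted mice, beside 0.738% of all genes. Of 7 acute-phase and cytokine-responsive genes 2 were called higher and 1 lower, beside the same shares: Serpina3n rose by 0.31 and Cebpd by 0.42, and Il6st fell by 0.15.

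Genes that respond to glucocorticoid hormone moved with Mt1 and Mt2. All 16 of the list were called higher under restriction, beside 7.31% of all genes, with a median log2 difference of 0.90. On refeeding all 16 were called lower, beside 6.79% of all genes, with a median of -0.75. The list was drawn up with these results known, so neither its count nor its summed level is independent evidence. Its summed level was 616 to 960 CPM in unrestricted, 1243 to 1495 CPM in restricted and 665 to 998 CPM in refed mice, with no overlap between the restricted mice and the others. Fkbp5, a chaperone of the glucocorticoid receptor, rose by 1.44, Cdkn1a by 2.09, Arrdc2 by 1.42 and Sult1a1 by 1.58. Female control restricted replicate 1, the low library for Mt1 and Mt2, had a summed level of 1265 CPM. The rest of its group had 1371, 1381 and 1437 CPM, and all restricted mice 1243 to 1495 CPM. Between refed and unrestricted mice 5 of the 16 were still called higher, beside 0.738% of all genes called in either direction. Among them was Fkbp5 at 0.37 (edgeR adjusted p = 0.0245). The rest of the 16 were not called, nor was any metallothionein, and a difference between the 2 sets was not tested. The part of the glucocorticoid-responsive genes in the metallothionein result was not tested.

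Cell type markers were read beside the same comparison. Astrocytes are known as a main source of Mt1 and Mt2 in brain. Of 12 astrocyte markers, 4 were called higher under restriction and 2 lower, with a median of -0.02, beside 7.31% and 7.84% of all genes. Gjb6 rose by 0.73, Agt by 0.62, Fgfr3 by 0.41 and Aldoc by 0.12, while Aqp4 fell by 0.48 and Sox9 by 0.20; these 6 are named because they were called. Their summed level overlapped between states, at 3896 to 4419, 3870 to 4557 and 3873 to 5041 CPM in unrestricted, restricted and refed mice. No marker of neurons, forebrain excitatory neurons, dentate granule cells, choroid plexus, red cells or skeletal muscle was called under restriction. Of 6 endothelial markers 2 were called higher and 1 lower, of 6 tested midbrain dopamine neuron markers 1 was called higher, and of 6 meningeal fibroblast markers 1 was called lower. Microglial markers were lower under restriction for 4 of 6, summing to 220 to 253 CPM in unrestricted and 186 to 244 CPM in restricted mice. Oligodendrocyte markers were lower for 5 of 7, but the sum was not: its median was 11930 CPM in unrestricted and 13810 CPM in restricted mice, with ranges of 9331 to 17580 and 8354 to 15900 CPM. Most of that sum came from Mbp and Mobp, which were at 0.11 and 0.16 on the log2 scale and were not called (edgeR adjusted p = 0.478 and 0.361). All 5 red cell genes were called higher in refed than in restricted mice, beside 8.38% of all genes. Their sum was 780 to 2715 CPM in refed and 288 to 819 CPM in restricted mice. All 5 were also called higher in refed than in unrestricted mice, where the sum was 287 to 1343 CPM. In that comparison 0.738% of all genes were called in either direction. No tested marker of these lists was at 0 in any library, and their part in the results was not tested.

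Within groups, the metallothioneins also varied together from mouse to mouse. Pearson's r and Spearman's rho were taken over the 48 libraries between the deviations of log2 CPM from the 12 group means, for 21 pairs of members, with a permutation of values within groups (100000 resamples, two-sided). Mt1 and Mt2 had r = 0.911 and rho = 0.913 (permutation p = 1e-05 each, the smallest possible, adjusted p = 7e-05). Without the 2 libraries farthest from the median of Mt1, r was 0.901. Within libraries up to 28 and from 29 on it was 0.89 (n = 28) and 0.968 (n = 20). Mt1 and Mt3 had r = 0.87 and rho = 0.831 (same permutation p), with 0.835 without the 2 farthest libraries and 0.865 and 0.877 within the library numbers. Mt2 and Mt3 had r = 0.765 and rho = 0.771, again with the smallest permutation p, with 0.727 without the farthest libraries and 0.763 and 0.832 within the library numbers. These transcripts share their short length, and after offsets took out the trend of every library with transcript length the 3 values were 0.854, 0.735 and 0.632, all still past the adjusted threshold (permutation adjusted p of at most 2.1e-04).

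Slc30a10 was inversely related to each of them. With Mt1 it had r = -0.498 and rho = -0.543 (permutation p = 0.00248 and 0.00081, adjusted 0.00868 and 0.00332). With Mt2 it had r = -0.543 and rho = -0.526 (permutation p = 9e-04 and 9.3e-04, adjusted 0.00472 and 0.00332), and with Mt3 -0.459 and -0.521 (permutation p = 0.00219 and 9.5e-04, adjusted 0.00868 and 0.00332). Without the 2 farthest libraries r was -0.508, -0.495 and -0.507. Within libraries up to 28 it was -0.363, -0.387 and -0.443, and from 29 on -0.666, -0.681 and -0.554. With the length trend removed, r was -0.344, -0.443 and -0.285 and none of the 3 passed (permutation adjusted p = 0.215, 0.074 and 0.215). The other 15 pairs had r between -0.329 and 0.291, and none of them passed the adjusted permutation test.

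**Figure D5:**
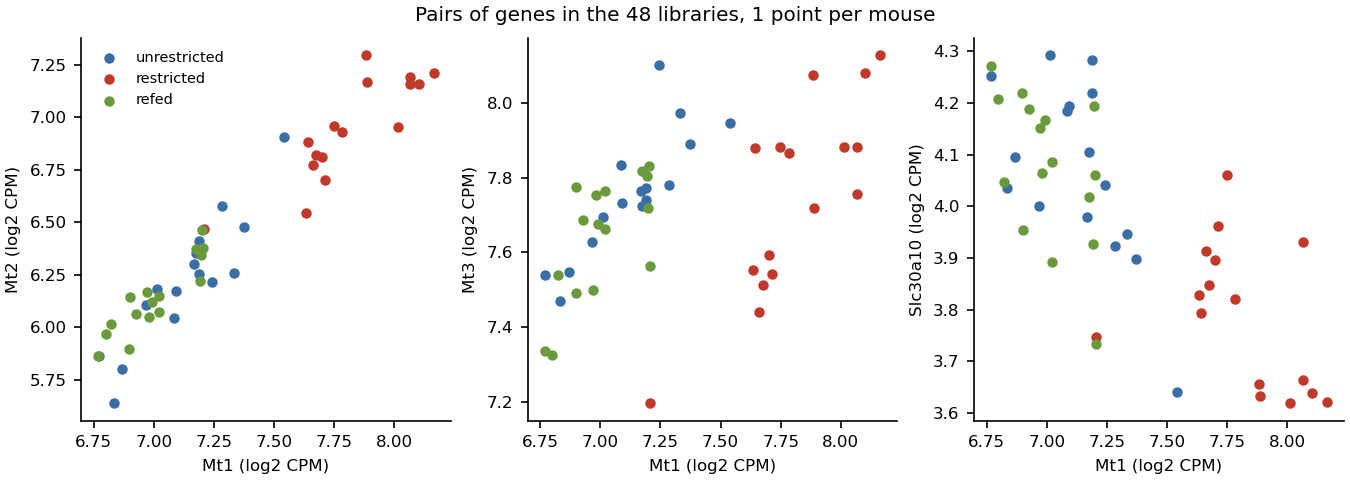
Log2 CPM of Mt2, Mt3 and Slc30a10 (vertical axes) against Mt1 (horizontal axes) in the 48 mice, coloured by feeding state. Mt1 and Mt2 lie along 1 line across feeding states, the restricted mice lie to the right of the others at like levels of Mt3, and Slc30a10 is lower where Mt1 is higher.

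The genes whose log2 CPM was most like that of Mt1 over the 48 libraries, by Pearson's r, were Mt2 (0.961), Spacdr (0.913), Cdkn1a (0.903), Gm19439 (0.898) and Phyhd1 (0.891). For Mt2 they were Mt1, Spacdr (0.895), Gm19439 (0.891), Arrdc2 (0.877) and Apod (0.87). For Slc30a10 they were Shisa9 (0.73), Map6d1 (0.728), Zeb2 (0.713), Fam20b (0.712) and Tppp (0.712). These values carry the feeding differences, which cluster the libraries, and are descriptions without a test. With group means removed, the genes most like Mt1 were Mt2 and Mt3, as above, then Rps29 (0.839), Rps26 (0.839) and Atp5mc3 (0.83), which encode ribosomal proteins and a subunit of the ATP synthase. For Mt2 the list went on with Tsc22d3 (0.766), Romo1 (0.761) and Tmem258 (0.755). For Slc30a10 it was Acvr1c (0.646), Arhgap20 (0.643), Bltp3b (0.638), 2510009E07Rik (0.633) and Snx25 (0.627). The points of each such comparison share their libraries and depth.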

How the data were processed

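The authors deposited 1 table of expected counts, estimated read numbers per gene symbol that need not be whole, for 48 libraries, each from a separate mouse. Per the submitters' processing notes, fastp, STAR and Salmon were used with build mm39; their versions and settings, and the strand setting of counting, are not given in the sources used here. No column of per-sample values was left unused (0 such columns).

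Groups came from the labels. Replicate numbers follow the order of the records and only name mice. Expected counts were rounded (66.1% of nonzero values were whole already, and no library total moved by more than 51.1), filtered with filterByExpr of edgeR 4.0.16 (minimum count 10, minimum total 15), scaled by TMM and fitted with 1 coefficient per group over all 48 libraries (glmQLFit and glmQLFTest, R 4.3.3). P-values were adjusted over the 17352 genes tested with the Benjamini-Hochberg method, and an adjusted p under 0.05 is a call. For log2 CPM the prior count was 2. The F statistics gave standard errors and 95% intervals. Tested on simulated counts of 17215 genes for restricted against unrestricted mice, the chain recovered 96 of 100 genes changed by 1 and 62 of 100 changed by 0.3 on the log2 scale, with 14 false calls. Library totals from 7574827 to 16185373 limit the precision, and without molecular identifiers the reads do not count separate molecules.

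The members and gene lists were chosen with earlier results of these data known. All members are named. From each list of pathway genes, at most 4 genes called on restriction or on refeeding are named, those with the smallest p on restriction, and Slc39a10, Slc39a14 and Gclc whatever their values. Within that limit, not every such gene of the NRF2 list and of the acute-phase and cytokine-responsive list is named. For Mt1, Mt2 and Slc30a10 the 5 genes with the highest correlation are named. Gene positions and transcript lengths came from GENCODE M39 on GRCm39. All 7 members matched a RefSeq promoter window. Motifs were searched on both strands.

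Alternatives were DESeq2 1.42.0, RLE size factors, no filter, voom of limma 3.58.1 with sample weights, age as covariate, a block of library number (up to 28 against higher), offsets that remove each library's trend over 20 bins of transcript length or GC content (known for 98.6% of genes), only the groups compared, CPM on plain totals, and leaving out each library. Chosen after seeing the data were the ratios within libraries and the fits without the Grin1fl/+ control, without the 2 libraries that stood apart and within library numbers.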

Additional observations from a re-analysis of the deposited data

Results flagged for a closer look

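In 9 of 84 sets of 4 mice (7 genes in 12 groups), 1 mouse lay so far from the other 3 that its gap exceeded Dixon's 95% critical value. Chance flags about 1 in 20 such sets, or 4.2 of 84, and genes of the same library are not independent.

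Female control restricted replicate 1 was low in Mt1, at 148 CPM beside 268 to 274 CPM, and in Mt2, at 88.4 CPM beside 143 to 146 CPM. This library had number 17 and the highest total count, 16185373, and the other mice of its group had numbers 46, 47 and 48. Female knockout unrestricted replicate 3 was low in Mt1, at 109 CPM beside 144 to 146 CPM, and in Mt3, at 186 CPM beside 213 to 218 CPM. Male control refed replicate 4 was low in Mt1, at 111 CPM beside 146 to 147 CPM. Female control unrestricted replicate 2, the Grin1fl/+ mouse, was high in Mt2, at 120 CPM beside 68.8 to 72.4 CPM. Female knockout restricted replicate 1 was high in Mt2, at 157 CPM beside 118 to 124 CPM, and in Mt3, at 269 CPM beside 233 to 236 CPM. Female control refed replicate 3 was low in Slc30a1, at 23.6 CPM beside 27.8 to 28.5 CPM. The cause was not tested.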

How the results depend on the processing

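No paired analysis was possible because replicate numbers follow the order of the sample records and pair no mice. The number of members called stayed within 1.5 times its value in 1296 of 1296 alternatives. That bound lets a count of 3 become 2, so it does not register the loss of 1 such call. Of 1680 member differences under other settings 1675 stayed on their side of the threshold, as did 7382 of 7392 with 1 library left out, and none that was called turned its direction. The exceptions under other settings were as follows. Slc30a3 on refeeding was called with library number as a block (-0.24, edgeR adjusted p = 0.0125, and in females -0.28, adjusted p = 0.049) and within libraries up to 28 (-0.23). Slc30a1 in restricted females was called by limma voom (-0.26, adjusted p = 0.0154). Slc30a10 in restricted males was lost with no filter on low counts (-0.24, edgeR adjusted p = 0.0933). The 10 calls lost with 1 library left out were those of Slc30a10 in a single sex given above. Of 21 relations among members 6 passed as reported and without the 2 farthest libraries, and 3 did with the trend on transcript length removed. Over other settings the restricted minus unrestricted difference ranged from 0.53 to 0.78 for Mt1, from 0.55 to 0.79 for Mt2 and from -0.34 to -0.25 for Slc30a10. With 1 library left out these ranges were 0.65 to 0.72, 0.67 to 0.76 and -0.31 to -0.26.

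The number of all genes called varied more with the setting, which bears on the percentages given as background. For refed against unrestricted mice it was 128, and 19 to 894 under other settings (29 and 10 to 1296 in males, 7 and 6 to 36 in females). On refeeding it was 1446 and 598 to 2240 in males, and 1058 and 764 to 1946 in females. On restriction in females it was 1088 and 815 to 1665. For males against females it was 62 and 35 to 1902. For knockouts against controls it was 1 and 1 to 3 over all mice, 67 and 2 to 547 in restricted females, 39 and 0 to 130 in refed males, 2 and 1 to 23 in unrestricted females, and at most 5 in the others. Feeding by sex called 0, and 0 to 14 under other settings; both interactions with genotype called 0, and 0 to 1. Leaving out 1 library moved these counts too. Without male control refed replicate 2 there were 677 genes for refed against unrestricted mice, 1815 in males, 3059 for refed against restricted males and 1084 for males against females. Over all libraries left out in turn, males against females ranged from 28 to 1084, and 25 of 48 omissions moved it by over 1.5 times. Refed against unrestricted mice ranged from 82 to 677, and from 12 to 1815 in males and 5 to 12 in females. Refed against restricted females had 693 without female control restricted replicate 4. Knockouts against controls ranged from 1 to 134 in restricted females and from 1 to 12 in unrestricted females. In refed males they ranged from 1, without male control refed replicate 1, to 161, without male control refed replicate 4. The cause was not tested.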
